A study of Mus musculus with 14 samples.

Results

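The genes described here are 45 of the 20377 gene symbols in the expression matrix of a mouse liver study, and they encode the coagulation and fibrinolysis proteins (23 genes), the complement proteins (19 genes) and the 3 chains of complement C1q. They were chosen by symbol from knowledge of both cascades, with earlier results of these data known. A gene with several transcript entries was represented by the entry with the highest mean. Of the 45 genes, 44 passed the filter for testing (at least 1 RPKM in at least 4 libraries), and Cfd, which encodes complement factor D, did not. The C1q chains, products of macrophages, served only as a check for macrophage RNA.

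RNA was sequenced from 3 populations of liver cells of C57BL/6 mice, chimeric animals in which mature hepatocytes carried a red fluorescent marker (mTomato). All animals had received 0.1% 3,5-diethoxycarbonyl-1,4-dihydrocollidine (DDC), a toxicant that blocks haem synthesis and provokes a ductular reaction, for 5 to 8 weeks, so no uninjured liver was among the samples. The hepatocyte-derived ductal cells (5 libraries) were MIC1-1C3+, mTomato+, low in side scatter and negative for CD11b, CD26, CD31 and CD45. The cholangiocyte-derived ductal cells (5 libraries) passed the same gate but were mTomato-negative host cells, and the hepatocytes (4 libraries) are given in the labels without surface markers. Libraries are named by the number in their column of the expression matrix. No label holds the number 220, and the labels left without a column hold 120. The labels do not say which libraries came from separate animals, so p-values describe the spread among these samples alone, which could be technical, and in sorted bulk RNA fewer cells of a type cannot be told apart from less RNA per cell.

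Coagulation is a chain of plasma proteases that ends with thrombin cutting fibrinogen into fibrin, and fibrinolysis is its reversal by plasmin. Complement is a second protease cascade of plasma, started by antibodies (classical pathway), by sugar-binding lectins (lectin pathway) or spontaneously (alternative pathway), and it ends with a pore in the membrane of the target. Hepatocytes secrete most of the proteins of both cascades, while tissue factor, thrombomodulin, the plasminogen activators and the membrane-bound regulators are made by many epithelial, endothelial and blood cells.

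The libraries matched their labels by marker genes, but some held RNA of other cells. The summed level of 8 hepatocyte markers was 48752 to 65883 RPKM in hepatocytes, 4498 to 9377 in hepatocyte-derived and 2891 to 4645 in cholangiocyte-derived ductal libraries, and that of 6 biliary markers was 690.5 to 1456, 16697 to 19438 and 20049 to 21576 RPKM. Hepatocyte library 118 stood apart, with 470.6 RPKM of summed C1q chains against 2.93 to 6.08 in the other hepatocyte libraries, 1146 RPKM of 10 macrophage markers against 59.0 to 82.9, and 202 RPKM of 8 endothelial markers against 5.04 to 13.45. The leading markers of other cells in library 118 were Lyz2 for macrophages (589 RPKM, others 2.71 to 10.99), Clec4g for endothelium (107 RPKM, others 0.84 to 5.71), Dcn for stellate cells and fibroblasts (97.0 RPKM, others 1.27 to 2.40) and S100a9 for neutrophils (35.95 RPKM, others 0.09 to 4.95). Pf4 of platelets was at most 15.6 RPKM and Cd3g of lymphocytes at most 0.56 RPKM in any library, and Spp1 made up most of the biliary and Alb of the hepatocyte marker sum. The biliary sum therefore hides differences between the ductal groups. In hepatocyte-derived and cholangiocyte-derived cells the means were 42.5 and 658 RPKM for Krt19, 35.7 and 302 for Krt7, and 85.3 and 545 for Epcam. Cdh1 (378 and 554 RPKM) and Sox9 (92.4 and 103) differed less. Summed C1q chains reached 23.7 to 49.9 RPKM in 4 hepatocyte-derived ductal libraries and 53.4 to 119 in 4 cholangiocyte-derived ones, but only 0.58 and 1.35 in the libraries numbered 219 of these groups, where the Kupffer cell markers Marco and Timd4 were listed at 0. Of the 10 macrophage markers, Csf1r was not low in libraries 219 (22.8 and 43.0 RPKM). Mpeg1 was the highest of the hepatocyte-derived group (30.0 RPKM) and the lowest of the cholangiocyte-derived group (14.8). The other macrophage markers were the lowest of their groups there. Cholangiocyte-derived libraries 118 and 220 also held 351 and 412 RPKM of 7 stellate cell and fibroblast markers, against 32.0 to 74.1 in the others of that group. Read numbers were not among the values used; the steps between low values gave an estimated 21000000 to 29900000 reads per library, a rough figure that puts the depths within 1.42-fold of each other.

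The first comparison set the coagulation and complement transcripts of hepatocyte-derived ductal cells against those of hepatocytes. Most secreted factors were lower than in hepatocytes, but rarely absent: among the 15 coagulation members that fell, the mean level was between 6.39% and 45.9% of that in hepatocytes, with a median of 19.4%. Of the 23 coagulation members, 15 were lower, 4 were higher and 4 were not called at an adjusted p under 0.05 in limma, where 14.8% of all 12638 tested genes were lower and 66.2% were higher. Of the 18 complement members tested, 13 were lower, 1 was higher and 4 were not called. The median difference was -1.79 on the log2(RPKM + 1) scale for coagulation and -1.53 for complement, against 0.67 for all tested genes.

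That median moved with the scaling of the libraries. After rescaling by median ratios it was 0.01, with 4670 genes higher and 4613 lower in place of 8363 and 1873, and differences of members with hepatocytes are best read against it. On the rescaled values 16 coagulation members were lower and 3 higher, and 15 complement members were lower and 0 higher. After quantile normalization, 14 and 10 were lower and 3 and 2 higher, where 4136 of all genes were lower and 4596 higher. Without hepatocyte library 118, the coagulation counts were 15 lower and 6 higher and the complement counts 13 and 3, where 1915 of all genes were lower and 8688 higher. Between the ductal groups the complement counts were then 12 higher and 1 lower, where 2387 of all genes were higher and 3304 lower.

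In cholangiocyte-derived ductal cells, 16 of 23 coagulation members and 16 of 18 complement members were lower than in hepatocytes, where 17.4% of all genes were lower. Another 6 coagulation members and 1 complement member were higher, where 67.1% of all genes were higher. The medians were -3.99 and -3.22, against 0.76 for all genes, which rescaling by median ratios moved to 0.05 (5050 genes higher and 4821 lower). Between the ductal groups, 16 coagulation members were higher and 4 lower in hepatocyte-derived cells, and 11 complement members were higher and 0 lower (7 not called), where 15.1% of all genes were higher and 21% lower. The medians were 1.25 and 0.83, against -0.03 for all genes. Quantile normalization turned the balance of all genes between the ductal groups to 3069 higher and 2403 lower, and left 16 and 11 members higher and 4 and 0 lower. The comparisons share libraries, so their counts are not independent of each other.

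A graded order was the most frequent pattern. For 15 coagulation and 11 complement members the mean was highest in hepatocytes, intermediate in hepatocyte-derived and lowest in cholangiocyte-derived ductal cells, an order found in 14.8% of all tested genes. In 14 and 9 of these the values of the 3 groups did not overlap at all: F2, F5, F7, F9, F10, F11, F12, F13b, Fga, Fgb, Fgg, Klkb1, Proc and Plg for coagulation, and Masp2, Mbl1, C3, Cfb, C8a, C9, Cfi, C4bp and Vtn for complement. Of all tested genes, 4.23% had this order with no overlap. Masp2 is listed here by its short transcript entry.

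**Figure D1:**
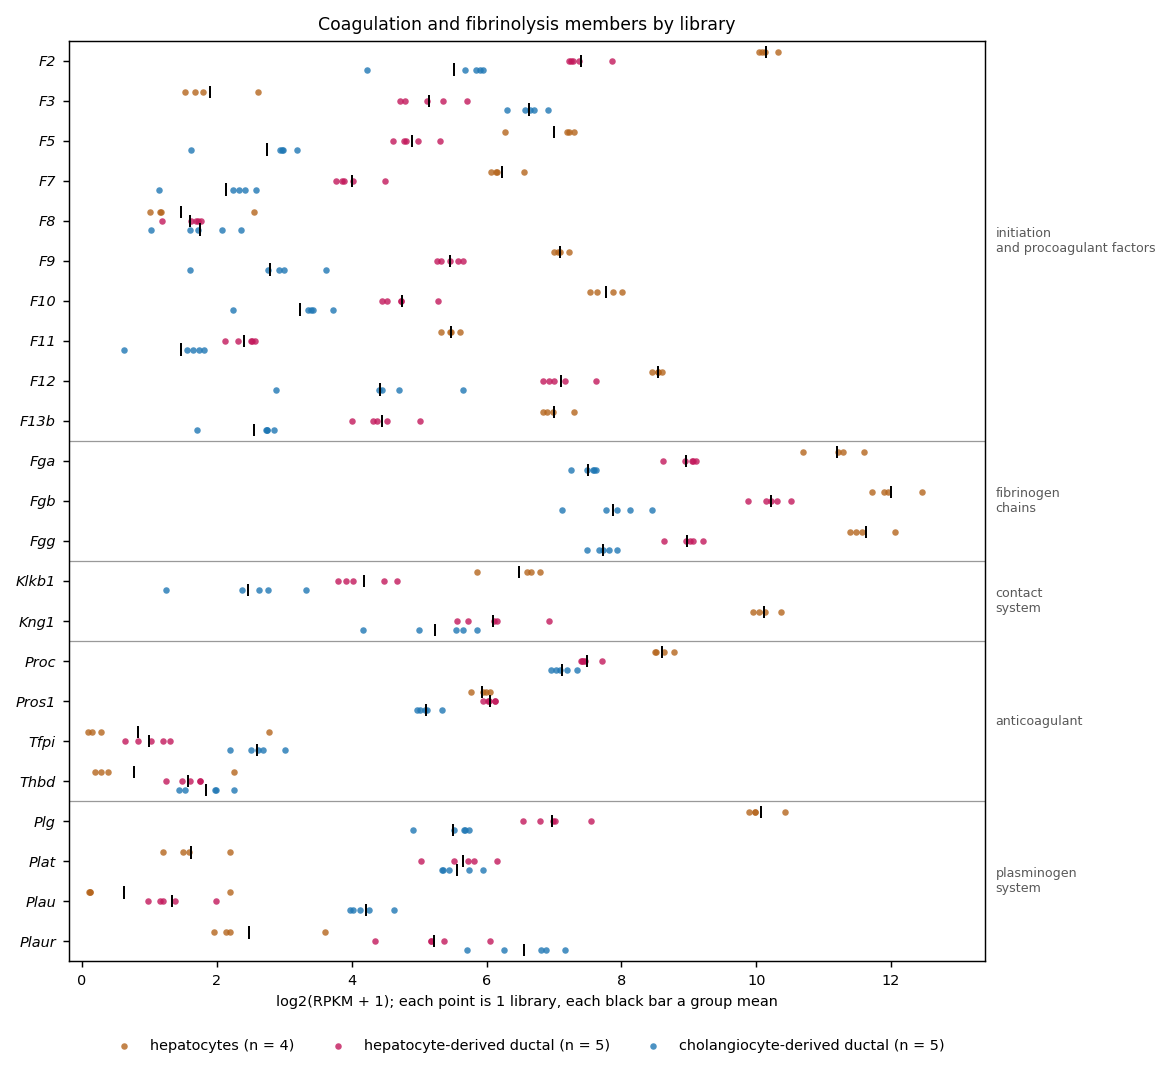
Levels of the 23 coagulation and fibrinolysis members in each library, as log2(RPKM + 1) on the horizontal axis, with 1 point per library, black bars at the group means and horizontal lines between roles. Prothrombin (F2) steps down from hepatocytes (mean 1137 RPKM) to hepatocyte-derived (170.5) and cholangiocyte-derived ductal cells (48.7), while tissue factor (F3) runs the other way (2.92, 35.4 and 98.8 RPKM).

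The hepatocyte markers give a level beside which this order can be read. The summed hepatocyte markers of cholangiocyte-derived cells stood at 7.13% of the hepatocyte mean, and 13 of the 16 coagulation members and 8 of the 16 complement members that were lower there lay at or below that share. Masp2 is among these 8 by its short transcript entry (7.56 against 166 RPKM), while its long entry held 9.40 against 75.6 RPKM. In hepatocyte-derived ductal cells the marker sum stood at 11.5%, and 2 of 15 coagulation members (F11 and Kng1) and 6 of 13 complement members (Mbl1, Mbl2, C6, C8a, C8b and C8g) lay at or below it. The markers themselves differed widely: Cyp7a1 was at 1.91% and Ttr at 21.5% of the hepatocyte mean in hepatocyte-derived cells, and at 3.05% and 14.1% in cholangiocyte-derived cells. How much of the low levels came from hepatocyte RNA in the sorted ductal cells was not tested.

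**Figure D2:**
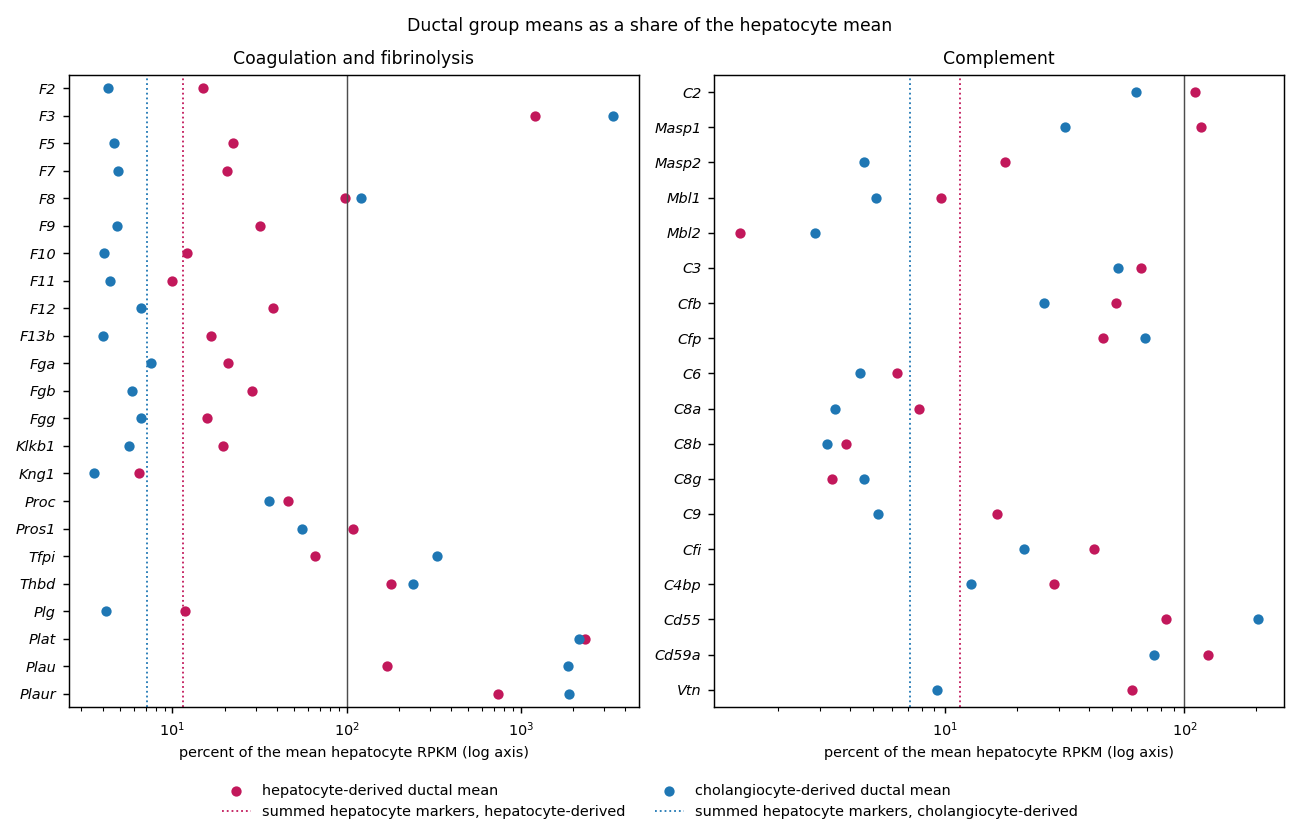
Mean RPKM of each member in the ductal groups as a percent of the hepatocyte mean (log axis, solid line at equality), with dotted lines at the share of the summed hepatocyte markers (11.5% and 7.13%). Pros1, C2, Masp1 and Cd59a of hepatocyte-derived cells lie to the right of equality, between 108% and 125.5%, and the terminal complement genes C6, C8a, C8b and C8g lie below the dotted line of each group.

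Prothrombin and factors VII, IX, X, XI and XII are protease precursors that the hepatocyte secretes, factor V is a cofactor without enzyme activity, and F13b encodes the carrier subunit of factor XIII. Prothrombin, the precursor of thrombin (F2, NM_010168, mm9 chromosome 2, 91465477 to 91476571), was at 1054 to 1283 RPKM in the 4 hepatocyte libraries, at 149.0 to 231 in the hepatocyte-derived and at 17.7 to 60.7 in the cholangiocyte-derived ductal libraries. The 3 ranges did not overlap. Against hepatocytes its mean was 6.67-fold lower in the hepatocyte-derived group (log2 difference -2.75 ± 0.29 SE, adjusted p = 5.40e-07) and 23.3-fold lower in cholangiocyte-derived ones.

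These factors did not fall to the same extent. Factor XII, the starter of the contact pathway (F12), had the highest share of the hepatocyte level among the 8 procoagulant factors that fell in hepatocyte-derived ductal cells: libraries 219, 220, 225, 248 and 611 held 142, 197, 127, 113 and 121 RPKM, or 37.8% of the mean of 370.4 in hepatocytes, and the cholangiocyte-derived libraries held 6.32 to 49.0. All hepatocyte-derived libraries were above all cholangiocyte-derived ones and below all hepatocytes (348.8 to 388). The difference from hepatocytes was -1.43 ± 0.38 (adjusted p = 0.0031), and was not called after quantile normalization (adjusted p = 0.0673). Factor IX, the protease lacking in haemophilia B, followed with 31.9% (F9, 43.1 ± 4.85 RPKM, SD, n = 5, against 135 ± 9.13, n = 4), and was 6.60-fold higher than in cholangiocyte-derived cells. Factor XI, which activates factor IX, was at the other end with 9.996% (F11, 4.33 ± 0.67 against 43.3 ± 3.54 RPKM), beside factor X, the protease of the prothrombinase complex, with 12.05% (F10, 26.3 ± 6.77 against 218 ± 33.0). Factors V, VII and XIII B lay between, at 22.2%, 20.5% and 16.7%.

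The transcript entries of F7 and F10 lie 1498 bases apart on chromosome 8, and those of F11 and Klkb1 7421 bases apart. In hepatocyte-derived cells F7 was at 20.5% of the hepatocyte mean and F10 at 12.05%, and F11 at 9.996% and Klkb1 at 19.4%. The shares of these neighbours lay closer together in cholangiocyte-derived cells. There F7 held 3.65 RPKM against 74.8 in hepatocytes and F10 8.88 against 218.5. F11 held 1.88 against 43.3 RPKM and Klkb1 5.11 against 90.6. Differences between neighbours were not tested. Factor VIII, the cofactor of factor IX that is mostly made by endothelium (F8), was low throughout, at 1.28 to 2.39 RPKM in hepatocyte-derived and 1.04 to 4.13 in cholangiocyte-derived ductal libraries. In hepatocytes library 118 held 4.88 RPKM and the others 1.01 to 1.25. F8 was not called in any comparison, but without that library its difference between cholangiocyte-derived cells and hepatocytes was 0.64 (adjusted p = 0.0202).

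Tissue factor, the membrane receptor that starts coagulation by binding factor VII, was the opposite of its soluble partners. F3 (NM_010171, chromosome 3, 121426455 to 121437970) was at 5.13, 1.87, 2.48 and 2.18 RPKM in hepatocyte libraries 118, 225, 248 and 611. Hepatocyte-derived ductal libraries 219, 220, 225, 248 and 611 held 25.4, 40.0, 26.7, 33.6 and 51.6 RPKM, and cholangiocyte-derived libraries 118, 219, 220, 225 and 611 held 103, 78.0, 98.8, 93.9 and 120 RPKM. The groups did not overlap, and the hepatocyte-derived libraries lay between the others. F3 was 12.2-fold higher than in hepatocytes in hepatocyte-derived cells (3.24 ± 0.23, adjusted p = 1.04e-08) and 33.9-fold higher in cholangiocyte-derived cells (4.73 ± 0.23, adjusted p = 1.30e-10), and it was lower in hepatocyte-derived than in cholangiocyte-derived cells (-1.49 ± 0.22, adjusted p = 8.44e-05). Libraries 219, whose macrophage marker sums were the lowest of the ductal groups (55.0 and 63.7 RPKM), held the lowest F3 of their groups, 25.4 and 78.0 RPKM, and the part of macrophage RNA in F3 was not tested. Csf1r and Mpeg1 made up most of those macrophage sums.

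The 3 fibrinogen chains, which are assembled into a single hexameric protein, fell together but by unequal amounts. Fgb, which encodes the beta chain, was at 3360, 3825, 3955 and 5616 RPKM in hepatocyte libraries 118, 225, 248 and 611, and at 938, 1272, 1135, 1185 and 1462 RPKM in hepatocyte-derived libraries 219, 220, 225, 248 and 611. It was at 279, 350.3, 218, 243 and 138 RPKM in cholangiocyte-derived libraries 118, 219, 220, 225 and 611. No value of a group reached into another group, and the mean share of the hepatocyte level was 28.6% in hepatocyte-derived and 5.86% in cholangiocyte-derived cells.

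Fga, the alpha chain, was at 20.7% of the hepatocyte mean in hepatocyte-derived and 7.56% in cholangiocyte-derived cells, and Fgg, the gamma chain, at 15.8% and 6.61%. The differences of hepatocyte-derived cells from hepatocytes were -2.24 ± 0.16 for Fga, -1.79 ± 0.23 for Fgb and -2.65 ± 0.15 for Fgg (adjusted p = 1.08e-08, 5.48e-06 and 1.11e-09). Quantile normalization ended the Fgb call (adjusted p = 0.0919).

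Within a library the ratio of chains removes the scaling between libraries. Fgb to Fgg was 2.20 to 2.56 in hepatocyte-derived ductal libraries, 1.26 to 1.34 in hepatocytes and 0.681 to 1.66 in cholangiocyte-derived ones. Every hepatocyte-derived library was above every other library in this ratio. Its mean of 2.37 ± 0.15 (SD, n = 5) differed from 1.30 ± 0.036 in hepatocytes (n = 4) and from 1.16 ± 0.35 in cholangiocyte-derived cells (n = 5), each with an exact two-sided permutation p of 0.00794, the smallest this design can give, and an adjusted p of 0.0119 over 21 ratio tests. The ratios were chosen after the values were seen. Fga to Fgg differed less, with 0.987 ± 0.038 against 0.749 ± 0.099 and 0.859 ± 0.042 (exact permutation, adjusted p = 0.0119 for both).

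The fibrinogen genes lie in a cluster on chromosome 3 in the order Fgg, Fga, Fgb, with 11103 and 8687 bases between their entries. Promoters were printed for the most abundant hepatocyte members that held a match to a searched sequence motif. That each printed promoter holds a match therefore follows from the choice. The 150 bases before the start of Fga (chr3:83026003-83026152, plus strand) and of Fgb (chr3:83049864-83050013, minus strand), from RefSeq on build GRCm38.p6, each hold the half-site GTTAAT of the hepatocyte factor HNF1, in capitals, which reads ATTAAC on the printed strand. The capitals begin 43 and 29 bases before the start.
Fga: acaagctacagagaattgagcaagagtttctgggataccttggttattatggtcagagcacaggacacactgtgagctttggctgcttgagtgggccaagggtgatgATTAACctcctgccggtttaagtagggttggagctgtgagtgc
Fgb: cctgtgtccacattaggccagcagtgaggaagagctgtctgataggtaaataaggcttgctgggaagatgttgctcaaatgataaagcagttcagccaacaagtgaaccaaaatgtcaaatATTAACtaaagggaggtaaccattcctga
The half-site was searched on both strands in the 250 bases before the start. It was present in 8 of 34 members with a RefSeq promoter (F13b, Fga, Fgb, Cfp, C8a, C8b, C4bp and Vtn) and in 6.43% of 32851 mouse promoters of the same length. Fgg held none. The members with a match ranged from Vtn, at 60.4% of the hepatocyte mean in hepatocyte-derived ductal cells, to C8b, at 3.86%. The FOXA motif TGTTTAC was in 2 members (F11 and Klkb1) and 3.17% of promoters. The HNF4 core CAAAGTCCA and the C/EBP palindrome TTGCGCAA were in 0 members, and in 0.384% and 0.164% of promoters. No member held matches to more than 1 of the motifs, so no matches overlapped, and a match is a description of the sequence.

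The contact system members are plasma prekallikrein (Klkb1) and kininogen (Kng1), the carrier of prekallikrein and the source of bradykinin. Both were lower in hepatocyte-derived ductal cells, at 17.6 ± 4.99 against 90.6 ± 23.3 RPKM and at 71.5 ± 29.5 against 1120 ± 140.1 RPKM, 19.4% and 6.39% of the hepatocyte level. Kng1 was higher in hepatocyte-derived than in cholangiocyte-derived cells (39.9 ± 15.9 RPKM) with an adjusted p of 0.0378, but the paired fit with a replicate block gave 0.0722, and leaving out hepatocyte-derived library 220, 225 or 611 or cholangiocyte-derived library 219 or 611 also ended the call (adjusted p of 0.0636 to 0.0983). The ratio of Kng1 to its paralogue Kng2 was 5.45 ± 0.28 in hepatocytes, 2.07 ± 0.94 in cholangiocyte-derived and 0.428 ± 0.11 in hepatocyte-derived cells (exact permutation, adjusted p = 0.0119 for each pair of groups). Kng2 was at 164 ± 28.4 RPKM in hepatocyte-derived cells and 205 ± 15.9 in hepatocytes, and reads of these near-identical genes may have been divided between them in a way that is not given in the sources used here.

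The anticoagulant members went separate ways. Protein S, the cofactor of activated protein C (Pros1, NM_011173, chromosome 16, 62854160 to 62929166), was at 60.7, 62.4, 65.1 and 53.8 RPKM in hepatocyte libraries 118, 225, 248 and 611. Hepatocyte-derived ductal libraries 219, 220, 225, 248 and 611 held 69.1, 69.2, 64.1, 60.9 and 64.7 RPKM, and cholangiocyte-derived libraries held 30.4 to 39.5. The hepatocyte-derived and hepatocyte ranges overlapped, and every cholangiocyte-derived library was below both. The difference from hepatocytes was 0.12 ± 0.08 (adjusted p = 0.213), which on values rescaled by median ratios became -0.68 (adjusted p = 1.10e-06), and the difference from cholangiocyte-derived cells was 0.95 ± 0.08 (adjusted p = 3.54e-07).

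Protein C, the protease that inactivates factors V and VIII (Proc), was 389.5 ± 36.3 RPKM in hepatocytes, 179 ± 17.3 in hepatocyte-derived and 139 ± 15.1 in cholangiocyte-derived cells. The ductal groups thus held 45.9% and 35.7% of the hepatocyte level, a small step between them (0.36 ± 0.09, adjusted p = 0.00701, and 0.0943 in the paired fit with a replicate block and 0.270 in libraries 225, 248 and 611 only). Cholangiocyte-derived cells held Proc and Pros1 (55.5%) at a higher share of the hepatocyte level than the proteases F2, F7, F9 and F10, which were at 4.06% to 4.88%.

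Tissue factor pathway inhibitor (Tfpi) and thrombomodulin (Thbd), the endothelial receptor through which thrombin activates protein C, were low in all groups. Tfpi was at 0.55 to 1.46 RPKM in hepatocyte-derived and 3.56 to 7.04 in cholangiocyte-derived ductal libraries, and Thbd at 1.37 to 2.37 and 1.71 to 3.76 RPKM. The hepatocyte values depended on library 118, which held 5.85 RPKM of Tfpi and 3.76 of Thbd against 0.06 to 0.22 and 0.14 to 0.31 in the others. Tfpi was lower in hepatocyte-derived than in cholangiocyte-derived cells (-1.60 ± 0.41, adjusted p = 0.00677, ranges apart) and higher in cholangiocyte-derived cells than in hepatocytes (1.77 ± 0.44, adjusted p = 0.00162), a call that quantile normalization ended (adjusted p = 0.250). That ratio of means was 3.31, and 39.7 without hepatocyte library 118. It was not called between hepatocyte-derived cells and hepatocytes (0.18, adjusted p = 0.726), but without hepatocyte library 118 it was 0.83 higher (adjusted p = 7.03e-04). Thbd was higher in cholangiocyte-derived cells (1.06 ± 0.35, adjusted p = 0.0107) and, at an adjusted p of 0.0480, in hepatocyte-derived cells, where 1.28 and 1.37e-05 were found without library 118 and adjusted p values of 0.0512 to 0.152 without each of 12 other libraries. Rescaling by median ratios ended both Thbd calls (adjusted p = 0.132 and 0.333).

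Of the 4 plasminogen system members, 1 was lower, 2 were higher and 1 was not called in hepatocyte-derived cells against hepatocytes, and 1 was lower and 3 were higher in cholangiocyte-derived cells. Of all tested genes, 66.2% were higher and 14.8% lower in the first comparison, and 67.1% and 17.4% in the second. The counts of higher members are thus near the share over all genes. Plasminogen (Plg), the plasma precursor of plasmin, was at 952 to 1381 RPKM in hepatocytes, 91.9 to 186 in hepatocyte-derived and 29.1 to 52.3 in cholangiocyte-derived ductal libraries, without overlap. Its mean was lower, at 11.8% and 4.17% of the level in hepatocytes (-3.10 ± 0.20 and -4.57 ± 0.20).

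Tissue plasminogen activator (Plat, NM_008872, chromosome 8, 23868216 to 23893320) was at 1.30 to 3.60 RPKM in hepatocytes. It was at 44.6, 31.6, 51.7, 55.3 and 70.5 RPKM in hepatocyte-derived libraries 219, 220, 225, 248 and 611, and at 60.9, 39.5, 42.3, 52.2 and 40.1 RPKM in cholangiocyte-derived libraries 118, 219, 220, 225 and 611. The ductal groups overlapped, and both were far above hepatocytes. The ratios to hepatocytes were 23.3 and 21.6 (4.03 ± 0.23 and 3.94 ± 0.23, adjusted p = 1.02e-09 and 6.60e-10), and the ductal groups differed by 0.08 ± 0.21 (adjusted p = 0.808).

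Urokinase (Plau, NM_008873, chromosome 14, 21655884 to 21662610), the other plasminogen activator, separated the ductal groups instead. Cholangiocyte-derived libraries 118, 219, 220, 225 and 611 held 16.5, 14.8, 15.3, 23.8 and 18.2 RPKM, and hepatocyte-derived libraries 219, 220, 225, 248 and 611 held 0.97, 1.30, 1.23, 1.60 and 2.96. The ranges were far apart. The mean was 10.99-fold lower in hepatocyte-derived cells (-2.87 ± 0.35, adjusted p = 1.44e-05). Hepatocyte library 118 held 3.56 RPKM and the other 3 held 0.07 to 0.08, so that the difference between hepatocyte-derived cells and hepatocytes was 0.71 (adjusted p = 0.0900) with that library and 1.23 (adjusted p = 5.28e-05) without it, and the ratio of cholangiocyte-derived cells to hepatocytes was 18.7 with it and 231 without it.

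The urokinase receptor (Plaur) was intermediate, at 19.2 to 65.1 RPKM in hepatocyte-derived and 51.4 to 143 in cholangiocyte-derived libraries, against 11.2 in hepatocyte library 118 and 2.89 to 3.60 in the others. It was higher than in hepatocytes in both ductal groups (2.75 ± 0.39 and 4.09 ± 0.39) and lower in hepatocyte-derived than in cholangiocyte-derived cells (-1.34 ± 0.37, adjusted p = 0.00972), with overlap of these 2 groups. Its ratio of means to hepatocytes rose from 7.40 to 11.8 and from 18.9 to 30.1 without library 118. The ratio of Plaur to Plat was 0.776 ± 0.26 in hepatocyte-derived and 2.12 ± 0.71 in cholangiocyte-derived cells (exact permutation, adjusted p = 0.0119), and did not overlap between them (0.431 to 1.11 and 1.30 to 2.91).

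Among complement members, the mean in hepatocyte-derived ductal cells ranged from 125.5% of the hepatocyte mean for Cd59a to 1.39% for the lectin Mbl2. C2, the protease subunit of the classical and lectin convertase (NM_013484, chromosome 17, 34999547 to 35019045), was at 133, 145, 133 and 115 RPKM in hepatocyte libraries 118, 225, 248 and 611 and at 149, 170.2, 136, 125.5 and 144 RPKM in hepatocyte-derived libraries 219, 220, 225, 248 and 611. These groups overlapped, and the cholangiocyte-derived libraries (75.9 to 99.4 RPKM) lay below both. The differences were 0.14 ± 0.11 from hepatocytes (adjusted p = 0.236) and 0.81 ± 0.10 from cholangiocyte-derived cells (adjusted p = 1.58e-05). The first depended on the scale: it was -0.66 after rescaling by median ratios (adjusted p = 2.55e-05) and 0.44 after quantile normalization (adjusted p = 0.00113).

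**Figure D3:**
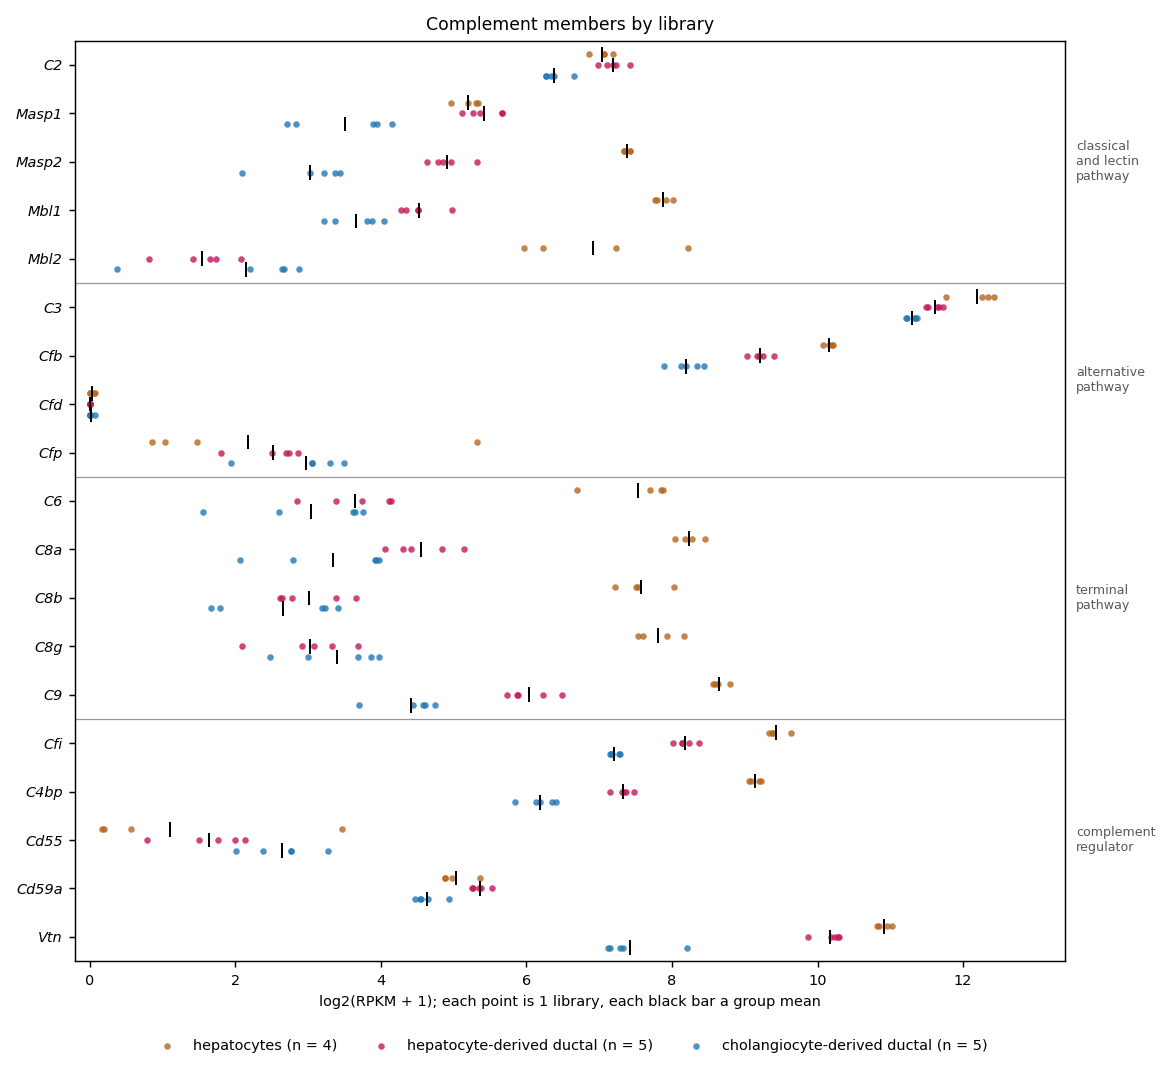
Levels of the 19 complement members other than the C1q chains in each library, as log2(RPKM + 1) on the horizontal axis, with 1 point per library, black bars at the group means and horizontal lines between roles. C2, Masp1 and Cd59a of hepatocyte-derived ductal cells overlap hepatocytes, the terminal genes C6, C8a, C8b, C8g and C9 lie far below them, and Cfd is at or near 0 in every library.

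Masp1, a protease carried by the lectins, behaved like C2. It was at 49.8, 37.5, 49.6, 40.2 and 33.6 RPKM in hepatocyte-derived libraries 219, 220, 225, 248 and 611, at 30.3 to 39.2 in hepatocytes and at 5.54 to 16.8 in cholangiocyte-derived libraries. It overlapped hepatocytes (0.22 ± 0.27, adjusted p = 0.475, and -0.57 with an adjusted p of 0.0686 after rescaling by median ratios) and was 3.72-fold higher than in cholangiocyte-derived cells (1.91 ± 0.25, adjusted p = 3.26e-05).

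The rest of the lectin pathway did not follow Masp1. Masp2 is the gene of the protease that cleaves complement C4 and C2, and it had a short and a long transcript entry. The short entry, with 738 bases and the highest mean, was at 29.5 ± 5.77 RPKM in hepatocyte-derived cells against 166 ± 5.89 in hepatocytes. The long entry of 3058 bases gave 19.3 against 75.6 RPKM, and 9.40 in cholangiocyte-derived cells. The short entry spans 1870 bases of the genome and the long one 12937. The calls for Masp2 are those of the short entry, and whether it encodes the whole protease was not examined. The lectins Mbl1 and Mbl2, which recognise mannose on microbes, fell, with log2 differences of -3.35 and -5.38 (adjusted p = 4.04e-10 and 2.43e-07). Mbl1 was at 18.3 to 30.5 RPKM against 217 to 257. Mbl2 was at 0.75, 3.21, 2.33, 1.66 and 2.14 RPKM in hepatocyte-derived libraries 219, 220, 225, 248 and 611, at 0.29 to 6.33 in cholangiocyte-derived and at 149, 61.6, 74.0 and 298 in hepatocyte libraries 118, 225, 248 and 611. The ductal groups overlapped (adjusted p = 0.371) and both were below all hepatocytes, which themselves ranged widely. The ratio of means to hepatocytes was 0.0139 in hepatocyte-derived cells, or 0.0213 without hepatocyte library 611, and 0.0286 in cholangiocyte-derived cells, or 0.0439.

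C3, the central component on which all pathways converge, was the most abundant complement member in every group. Hepatocyte libraries 118, 225, 248 and 611 held 3466, 4919, 5202 and 5487 RPKM, hepatocyte-derived libraries 219, 220, 225, 248 and 611 held 2944, 2890, 3199, 3258 and 3378, and cholangiocyte-derived libraries held 2384 to 2642. The ranges did not overlap, but the highest hepatocyte-derived library was close to hepatocyte library 118. Cholangiocyte-derived cells still held 52.8% of the hepatocyte level and hepatocyte-derived cells 65.7% (-0.90 ± 0.15 and -0.59 ± 0.15, adjusted p = 4.33e-05 and 0.00192). Quantile normalization turned both directions, to 0.94 and 0.69 (adjusted p = 5.32e-05 and 9.85e-04), and omitting the filter on low values ended the second call (adjusted p = 0.189). The ductal groups differed by 0.31 ± 0.14, which was not called (adjusted p = 0.0932) but was without hepatocyte library 118 (adjusted p = 0.0246).

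Factor B, the protease of the alternative convertase (Cfb), was 1145 ± 46.3 RPKM in hepatocytes, 593 ± 56.3 in hepatocyte-derived and 295 ± 42.9 in cholangiocyte-derived cells, 51.8% and 25.8% of the hepatocyte level. Its difference of -0.95 ± 0.11 (adjusted p = 2.31e-06) vanished under quantile normalization (0.015, adjusted p = 0.897). The transcript entries of Cfb and C2 lie 87 bases apart, in the same direction, yet Cfb fell and C2 did not on the deposited scale. The ratio of Cfb to C2 was 8.78 ± 1.099 in hepatocytes, 4.10 ± 0.14 in hepatocyte-derived and 3.57 ± 0.34 in cholangiocyte-derived cells (exact permutation, adjusted p = 0.0119 for each ductal group against hepatocytes and 0.0208 between them). In hepatocytes it ran from 7.85 to 10.3, above every ductal library (3.10 to 4.21).

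Factor D, the adipocyte protease that activates factor B (Cfd), was listed at 0 in 11 libraries and at no more than 0.05 RPKM in the others. Properdin (Cfp), which stabilises the alternative convertase and is made by white blood cells, was at 39.1 RPKM in hepatocyte library 118 and 0.81 to 1.78 in the other hepatocytes, at 2.48 to 6.23 in hepatocyte-derived and 2.85 to 10.3 in cholangiocyte-derived libraries. It was not called in any comparison. Without hepatocyte library 118 it was higher in both ductal groups (1.40 and 1.85, adjusted p = 9.74e-04 and 8.27e-05). In both ductal groups its lowest value was in library 219, where the summed C1q chains were also lowest.

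The terminal pathway genes encode the pieces of the membrane attack complex, and all 5 were lower in both ductal groups. Of all tested genes, 14.8% were lower in hepatocyte-derived and 17.4% in cholangiocyte-derived cells. The median difference from hepatocytes was -3.88 in hepatocyte-derived and -4.49 in cholangiocyte-derived cells. C8g, the gamma chain of C8, was at 3.27, 11.8, 9.0, 7.42 and 6.56 RPKM in hepatocyte-derived libraries 219, 220, 225, 248 and 611, at 4.57 to 14.7 in cholangiocyte-derived and at 184 to 286 in hepatocyte libraries. The ductal groups overlapped and both were far below hepatocytes. The shares of the hepatocyte level in hepatocyte-derived cells were 3.36% for C8g, 3.86% for C8b, 6.31% for C6, 7.73% for C8a and 16.5% for C9, the subunit that forms the wall of the pore.

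Only C9 and C8a of the 5 were higher in hepatocyte-derived than in cholangiocyte-derived cells in the fit without pairing (1.63 ± 0.18 and 1.21 ± 0.34, adjusted p = 7.02e-06 and 0.0109), and C6 was higher as well in the paired fit with a replicate block (0.72, adjusted p = 0.0255, against 0.281 without it). In the fit without pairing, 15.1% of all tested genes were higher in hepatocyte-derived than in cholangiocyte-derived cells. The chains of C8 did not fall in proportion. C8b to C8a was 0.315 ± 0.029 in hepatocyte-derived ductal cells, 0.643 ± 0.16 in hepatocytes and 0.585 ± 0.11 in cholangiocyte-derived cells, and C8g to C8a was 0.319 ± 0.063, 0.763 ± 0.20 and 1.15 ± 0.59. Hepatocyte-derived libraries were below all others in both ratios (exact permutation, adjusted p = 0.0119 for each), and the other 2 groups were not called different in either (adjusted p = 0.575 and 0.287). The entries of C8a and C8b are neighbours on chromosome 4, 11131 bases apart on opposite strands.

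Among the regulators, vitronectin (Vtn), a plasma and matrix protein that blocks the membrane attack complex, distinguished the ductal groups most. Hepatocyte-derived libraries 219, 220, 225, 248 and 611 held 936, 1244, 1164, 1208 and 1257 RPKM, and cholangiocyte-derived libraries 118, 219, 220, 225 and 611 held 159, 295, 155, 138 and 141. Hepatocytes held 1801 to 2070.5. No ranges overlapped, and hepatocyte-derived cells lay nearer to hepatocytes, at 60.4% of their level against 9.25% in cholangiocyte-derived cells. They were 6.53-fold above cholangiocyte-derived cells (2.76 ± 0.18, adjusted p = 2.87e-08). The difference from hepatocytes was -0.73 ± 0.19 (adjusted p = 0.00248), and quantile normalization turned it to 0.41 (adjusted p = 0.0748).

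The regulators C4bp and Cfi, which act together to degrade C4b, followed the graded order. C4bp, the C4b-binding protein, was 160.2 ± 13.02 RPKM in hepatocyte-derived and 72.4 ± 10.8 in cholangiocyte-derived cells against 565 ± 32.8 in hepatocytes. Cfi, the protease factor I, was 289 ± 26.8 and 147 ± 6.92 against 691 ± 68.6 RPKM. All differences between groups were called, and none of the ranges overlapped.

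The promoters of Vtn (chr11:78498970-78499119, plus strand) and C4bp (chr1:130661619-130661768, minus strand) also hold the HNF1 half-site in capitals, beginning 112 and 64 bases before the start. They were chosen by the same rule as Fga and Fgb, so the match follows from the choice here too. In hepatocyte-derived ductal cells Vtn was at 60.4% and C4bp at 28.4% of the hepatocyte mean. Both are RefSeq sequences of GRCm38.p6.
Vtn: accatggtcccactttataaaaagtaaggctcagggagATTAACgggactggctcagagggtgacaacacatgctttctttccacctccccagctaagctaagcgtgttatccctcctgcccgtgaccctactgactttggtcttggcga
C4bp: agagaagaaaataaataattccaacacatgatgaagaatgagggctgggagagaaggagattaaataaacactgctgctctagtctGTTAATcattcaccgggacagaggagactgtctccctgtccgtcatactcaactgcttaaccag
The match lies on the opposite strands of these promoters, and the same letters are in promoters of members at a low share of the hepatocyte mean, such as C8a (7.73%).

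The membrane-bound regulators protect a cell's own surface from complement. Cd59a, which blocks the pore, was at 45.0, 39.8, 40.7, 37.3 and 37.5 RPKM in hepatocyte-derived libraries 219, 220, 225, 248 and 611, at 40.2, 30.5, 28.5 and 28.5 in hepatocyte libraries 118, 225, 248 and 611, and at 21.1 to 29.6 in cholangiocyte-derived libraries. Hepatocyte library 118 lay within the hepatocyte-derived range and the other hepatocytes below it. The difference of 0.33 ± 0.12 (adjusted p = 0.0167) became -0.45 after rescaling by median ratios (adjusted p = 0.00142) and was no longer called without hepatocyte library 248 or 611 (adjusted p = 0.0552 and 0.0532). Cd59a was higher in hepatocyte-derived than in cholangiocyte-derived cells (0.73 ± 0.11, adjusted p = 9.52e-05).

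Cd55, which dissolves convertases, was at 10.04 RPKM in hepatocyte library 118 and 0.12 to 0.48 in the others, at 0.72 to 3.40 in hepatocyte-derived and 3.04 to 8.64 in cholangiocyte-derived libraries. It was higher in cholangiocyte-derived cells than in hepatocytes (1.54 ± 0.56, adjusted p = 0.0195), and leaving out hepatocyte library 225, 248 or 611 ended that call (0.0566 to 0.0703), as did rescaling (0.117). Without library 118 it was 2.33 and 1.33 higher in the ductal groups (adjusted p = 5.62e-06 for cholangiocyte-derived and 0.00101 for hepatocyte-derived cells), and the difference of -1.004 between the ductal groups, not called with that library (adjusted p = 0.163), was called without it (0.00646).

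**Figure D4:**
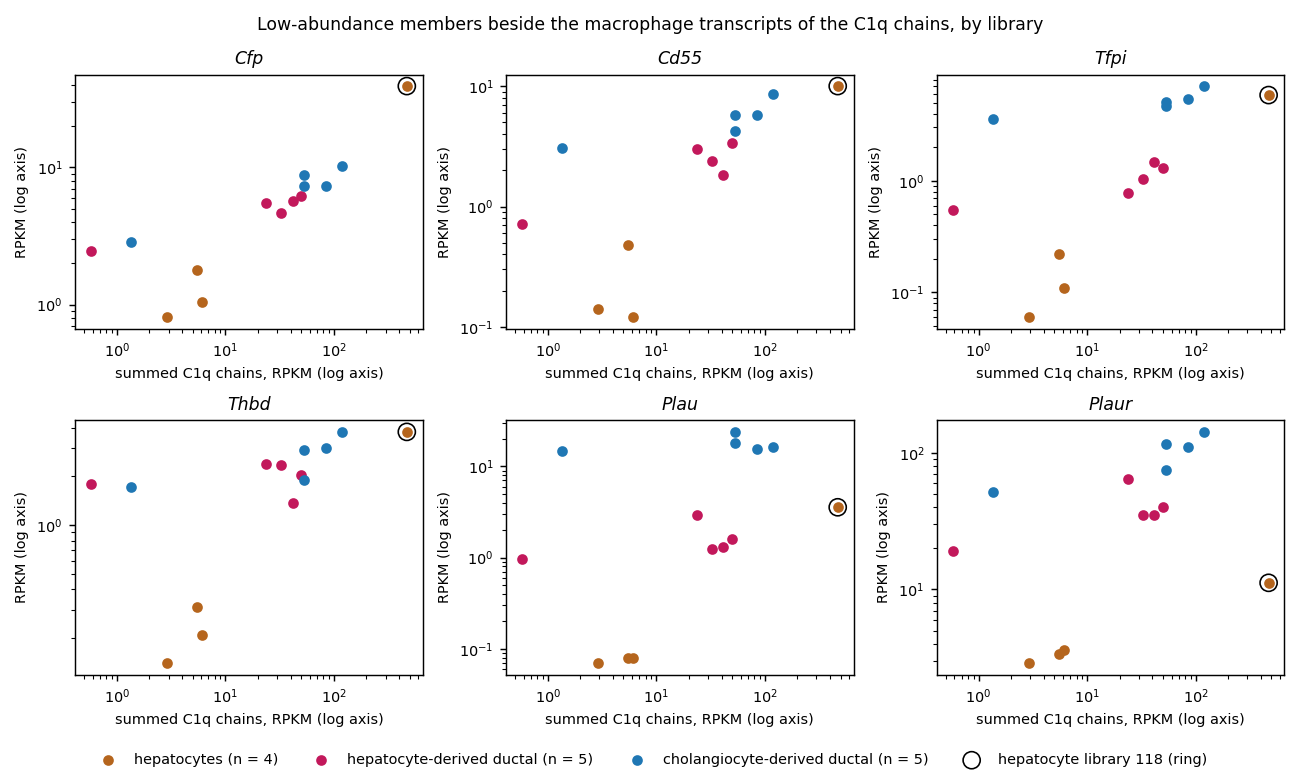
RPKM of 6 low members (vertical, log axis) against the summed RPKM of the C1q chains (horizontal, log axis), with 1 point per library and a ring around hepatocyte library 118. That library is the highest of all in C1q (470.6 RPKM) and holds the highest Cfp and Cd55, and cholangiocyte-derived library 219, with 1.35 RPKM of C1q, holds 14.8 RPKM of Plau and 51.4 of Plaur, the lowest of its group.

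The C1q check bears on the low members Cfp, Cd55, Tfpi, Thbd, Plau and Plaur. Macrophage, endothelial and stellate markers were all highest in hepatocyte library 118 among hepatocytes, and their part in these values was not tested. In libraries 219, where the summed C1q chains were 0.58 and 1.35 RPKM, the hepatocyte-derived and cholangiocyte-derived cells held 0.97 and 14.8 RPKM of Plau, 0.55 and 3.56 of Tfpi, 19.2 and 51.4 of Plaur, 0.72 and 3.04 of Cd55, 2.48 and 2.85 of Cfp and 1.80 and 1.71 of Thbd. For Thbd the order of this pair was opposite to that of the group means (1.98 and 2.65 RPKM), and for the other 5 it was the same.

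Cholangiocyte-derived library 611 was unlike the others of its group in the hepatocyte-secreted members. It was the lowest of 5 in 12 of 23 coagulation and 10 of 19 complement members. That count alone does not set it apart, as hepatocyte-derived library 219 was the lowest of its group in 11 and 9. Under 50% of the median of the others were 10 coagulation and 5 complement members in library 611, and 1 and 4 in hepatocyte-derived library 219. The same counts over all genes were not made. In cholangiocyte-derived library 611 F2 was 17.7 RPKM against 50.1 to 60.7 in the others, 30.8% of their median. F5 was 2.08 against 6.64 to 8.16 and C6 was 1.93 against 5.05 to 12.5. In the same library Fga (93.1%), Fgg (92.6%), Pros1 (93.7%), C2 (94.1%), C3 (104%), Cfi (96.1%) and Vtn (89.8%) were near the median of the others, and Proc (123%) was above all of them. Of the hepatocyte markers, Alb stood at 109% and Apoa1 at 28.4%. Members of the same role were therefore divided in this library, with Fgb at 52.7% beside Fga and Fgg.

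**Figure D5:**
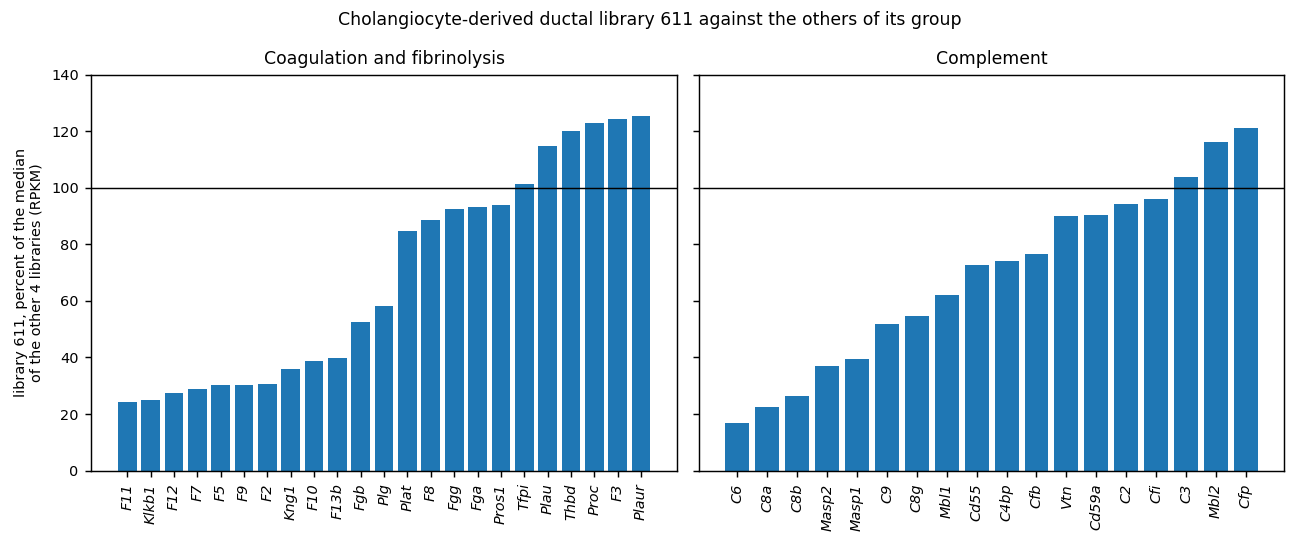
Level of each member in cholangiocyte-derived ductal library 611 as a percent of the median of the other 4 libraries of that group (bars from 0, line at 100 percent), sorted within each cascade. C6 (16.9%), C8a (22.3%), F11 (24.3%) and Klkb1 (25.0%) are the lowest, and Pros1, Fga, Fgg, C2, Cfi and C3 lie near the line.

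The other genes of both cascades were taken from lists of 28 coagulation genes and 25 complement genes, of which 24 were found. Of 23 tested coagulation genes, 14 were lower and 5 higher against hepatocytes in hepatocyte-derived cells, 16 lower and 5 higher in cholangiocyte-derived cells, and 12 higher and 1 lower between the ductal groups. Of 19 tested complement genes the counts were 8 lower and 2 higher, 10 lower and 2 higher, and 9 higher and 0 lower. Over all tested genes, 14.8% were lower and 66.2% higher in the first of these comparisons, and 17.4% and 67.1% in the second. Between the ductal groups 15.1% of all genes were higher and 21% lower. Antithrombin (Serpinc1), the main inhibitor of thrombin, was at 57.9 ± 23.6 and 45.0 ± 22.6 RPKM in hepatocyte-derived and cholangiocyte-derived cells against 1485 ± 134, and the plasma protein Hrg at 14.9 ± 9.39 and 15.0 ± 10.2 against 456 ± 84.5. Heparin cofactor II (Serpind1) was higher between the ductal groups, at 150.1 ± 11.9 RPKM in hepatocyte-derived and 18.8 ± 5.76 in cholangiocyte-derived cells against 424 ± 75.4, and antiplasmin (Serpinf2) at 160 ± 32.7 and 33.6 ± 14.9 against 664 ± 58.6.

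The protease-activated receptors pass the signal of thrombin and other proteases to cells. F2rl1 was 39.5 ± 7.96 and 74.3 ± 11.2 RPKM against 2.55 ± 0.96 in hepatocytes, higher in both ductal groups (3.54 ± 0.20 and 4.44 ± 0.20). F2r was 61.0 ± 10.9 in hepatocyte-derived and 12.3 ± 7.23 in cholangiocyte-derived cells against 21.0 ± 9.35, higher in the first (adjusted p = 0.0044) and not called in the second (adjusted p = 0.110). Proz, which encodes protein Z, was at 5.46% and 3.54% of the hepatocyte level, and Cpb2, the carboxypeptidase that slows fibrinolysis, at 4.92% in cholangiocyte-derived cells.

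Among the complement genes, Hc, which encodes C5, the first component of the terminal pathway, was 40.1 ± 9.49 RPKM in hepatocyte-derived and 15.1 ± 5.91 in cholangiocyte-derived cells against 429 ± 88.7. C1s, the protease of the C1 complex, was 214 ± 37.8 and 29.2 ± 19.8 against 281 ± 26.2. The carboxypeptidase N chains differed, with Cpn1 at 192 ± 25.7 and 49.4 ± 14.01 RPKM against 189.6 ± 11.7 in hepatocytes and Cpn2 at 18.8 ± 6.03 and 4.62 ± 1.75 against 111 ± 18.8. Clu, a secreted inhibitor of the membrane attack complex, was 23112 ± 1663 RPKM in hepatocyte-derived and 18346 ± 1686 in cholangiocyte-derived cells against 4680 ± 700.2 in hepatocytes. Omitting the filter on low values ended the call of hepatocyte-derived cells (adjusted p = 0.208).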

How the data were processed

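RNA from 14 libraries was sequenced by the submitters with an unstranded kit (TruSeq RNA v2, per the labels' protocols). The deposited values are RPKM (read counts scaled to transcript length and library size) to 2 decimals, computed by the authors per RefSeq transcript, and reads were aligned with Bowtie 0.12.7 and CASAVA to mm9, per the submitters' processing notes. How reads were counted is not given in the sources used here. RPKM depends on all other transcripts of a library, and reads of near-identical, overlapping or antisense genes cannot be told apart.

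The entry with the highest mean represented each symbol. Genes that reached 1 RPKM in 4 or more libraries were tested on log2(RPKM + 1), so differences of low genes are understated, with limma 3.58.1 (R 4.3.3, eBayes with a trend), all 14 libraries and 3 groups in 1 fit, and Benjamini-Hochberg adjustment over 12638 genes. Errors beside log2 differences are standard errors of that fit, those beside RPKM are SDs, and folds are ratios of mean RPKM. The fit was tested on simulated data. Ratios within a library were tested by exact permutation. Other tools were Python 3.11.15, numpy 2.4.6, pandas 2.3.3 and matplotlib 3.10.9.

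The members and lists were chosen with earlier results of these data known. All members were eligible to be named, and of the other genes of the cascades those with the largest changes in each comparison, of which 1 is not reported here. The deviations of same-numbered libraries were correlated between the ductal groups with r of 0.797, 0.212 and 0.424 (219, 225 and 611). The ductal pair numbered 220, whose number is in no label, had r of 0.428 and was not in the paired fit. Between cholangiocyte-derived cells and hepatocytes r was 0.512, 0.133 and 0.225 (118, 225 and 611). Between hepatocyte-derived cells and hepatocytes r was 0.129, 0.0208 and 0.193 (225, 248 and 611). Differently numbered libraries reached 0.464 (hepatocyte-derived 220 and cholangiocyte-derived 118), and only 0.797 and 0.512 stood above that. Pairing by number was therefore not settled, and the paired fit with a replicate block was run as an alternative. Columns numbered 220 were matched to their groups only, as the labels hold 120 in place of that number. The series' design text counts 3 hepatocyte samples and the table holds 4. Alternatives were other pseudocounts, filters, scalings, fits and libraries left out. Precision is limited by 4 or 5 libraries a group and, for low values, by the read number, which was only estimated.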

Additional observations from a re-analysis of the deposited data

Results flagged for a closer look

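In 26 of 135 groups of member values the highest or lowest library was separated from the rest of its group by a gap that was large against the group's whole range. Chance alone separates about 1 in 20 groups in this way. Of the 26, 12 were in hepatocyte library 118.

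Hepatocyte library 118 was high in C1qa (137.41 RPKM), C1qb (186.11 RPKM), C1qc (147.03 RPKM), Cfp (39.13 RPKM), Plaur (11.19 RPKM), Cd55 (10.04 RPKM), Tfpi (5.85 RPKM), F8 (4.88 RPKM), Thbd (3.76 RPKM), Plau (3.56 RPKM) and Cd59a (40.21 RPKM), and low in F5 (76.25 RPKM, others 146.04 to 156.45). The next highest hepatocyte libraries held 2.06, 2.36 and 1.77 RPKM of the C1q chains and 1.78 of Cfp. Hepatocyte library 611 was high in F7 (93.04 RPKM), Plg (1381.33 RPKM) and Cfi (793.35 RPKM).

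Hepatocyte-derived ductal library 220 was high in F2 (231.49 RPKM, others 149 to 164.97), F10 (37.81 RPKM) and Proc (209.22 RPKM), and it also had the highest summed hepatocyte markers of its group, 9377 RPKM. Library 219 of that group was low in F8 (1.28 RPKM) and Vtn (935.92 RPKM), and its summed hepatocyte markers were the lowest, 4498 RPKM. Cholangiocyte-derived ductal library 611 was low in F2 (17.73 RPKM), F5 (2.08 RPKM) and F13b (2.25 RPKM). Library 219 of that group was high in C2 (99.37 RPKM) and Vtn (294.67 RPKM), and library 220 held 0.05 RPKM of Cfd where the others were listed at 0. The part of other cells' RNA in these values was not tested.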

How the results depend on the processing

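The counts of called members moved little over 27 settings: 17 to 22 for coagulation and 12 to 16 for complement between hepatocyte-derived cells and hepatocytes, 21 to 23 and 16 to 18 between cholangiocyte-derived cells and hepatocytes, and 18 to 20 and 11 to 13 between the ductal groups. These counts join both directions, and a member that turned but was still called, such as C3 under quantile normalization, stays in them. Most of all tested genes were also called against hepatocytes in the main fit. There 66.2% were higher and 14.8% lower in hepatocyte-derived cells, and 67.1% and 17.4% in cholangiocyte-derived cells. Between the ductal groups 15.1% were higher and 21% lower. Leaving out each library gave 18 to 21, 13 to 16, 22 to 23, 16 to 18, 19 to 20 and 11 to 13. The paired fit with a replicate block (12 libraries) gave 21, 15, 22, 17, 18 and 12. The libraries it treats as paired are linked by their numbers alone. Between hepatocyte-derived cells and hepatocytes that fit added F8 (0.50), Plau (1.05) and Cd55 (1.22), and between the ductal groups it changed only the calls of Kng1, Proc and C6 given above.

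Directions changed for low members and under other scalings, and the cause was not tested. For hepatocyte-derived cells against hepatocytes, rescaling by median ratios gave F8 -0.40, Pros1 -0.68, Tfpi -0.11, C2 -0.66, Masp1 -0.57, Cfp -0.23 and Cd59a -0.45. Quantile normalization gave F8 -0.91, Tfpi -0.73, Thbd -0.29, Plau -0.22, Masp1 -0.059, C3 0.69, Cfb 0.015, Cfp -0.57, Cd55 -0.45 and Vtn 0.41. A pseudocount of 5 gave Tfpi -0.040 and Cfp -0.046. Leaving out single hepatocyte libraries gave F8 -0.029 (611), Tfpi -0.071 (225), -0.049 (248) and -0.0037 (611), and Cfp -0.093 (225) and -0.036 (248), while the highest values were 0.49, 0.83 and 1.40, all without library 118.

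For cholangiocyte-derived cells against hepatocytes, F8 was -0.26 after rescaling, and quantile normalization gave F8 -1.04, Thbd -0.32, C3 0.94 and Cfp -0.26. Between the ductal groups, quantile normalization gave F8 0.12, Thbd 0.023 and C3 -0.25, the replicate block F8 0.19, Thbd 0.20 and Cfp 0.15, and Plat ranged from -0.047 without hepatocyte-derived library 611 to 0.24 without 220. F8 was 0.041 in libraries 225, 248 and 611 only, and 0.15 with cholangiocyte-derived 118 and 220 and hepatocyte 118 left out together, 2 alternatives chosen after seeing the data, as was a fit with the form of the column names as a term. Values under 1 RPKM, such as those of Tfpi, Thbd, Plau and Cd55 in hepatocyte libraries 225, 248 and 611, rest on few reads.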
